A study of Mus musculus with 9 samples.

Results

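The genes described here encode the machinery that licenses replication origins, unwinds DNA and copies it. They are 41 genes of the 21883 protein-coding genes annotated by RefSeq on the mouse chromosomes. They were chosen by name and role and not filtered on a measured value, though earlier results of these data were known. Chromatin came from the thymus of C57BL/6J mice and was described by the submitters as cells of a T cell lymphoma driven by MYCN. Each of 7 antibodies (EZH2, SUZ12, H3K27me3, N-MYC, p300, H3K27ac and H3K4me3) had 1 library made by ChIPmentation, in which a transposase adds the sequencing adapters while chromatin is still held by the antibody. The labels name no transgene promoter, Cre line or number of animals, the 2 input libraries had no peak list here, and no untreated or normal thymus was among the samples. With 1 library per antibody no difference has a replicate check and no test was made.

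In G1 the origin recognition complex, Cdc6 and Cdt1 load the MCM2-7 helicase onto DNA, and geminin blocks reloading later in the cycle. Cdc45 and GINS then turn MCM2-7 into the moving helicase, and the polymerases copy DNA with the sliding clamp PCNA. Transcription of many of these genes rises as cells enter S phase under E2F transcription factors. MYC proteins, which bind the E-box CACGTG together with MAX, are also known to drive cell cycle entry. EZH2 is the methyltransferase of Polycomb repressive complex 2, SUZ12 is a core subunit of that complex, and H3K27me3 is the mark it leaves on silent genes. p300 is an acetyltransferase, and H3K27ac and H3K4me3 mark active promoters. The title of the series presents EZH2 as an activator of transcription under MYCN, so the peaks at these genes ask which of the features met at promoters of proliferating cells.

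A gene was read over 1 kb on each side of its transcript start and over the whole H3K4me3 peak that reached this window. A list was counted as present when it had a peak overlapping that region by at least 1 bp, and the value given is the authors' fold enrichment of the strongest such peak, a linear ratio over background. RefSeq gave a start with its strand for 33 of the genes. Gmnn, Mcm4, Gins1, Gins2, Gins4, Rfc2, Prim2 and Pole were read at both gene ends, and each of these 8 had H3K4me3 at a single end. Read at both ends, 50% of all 21883 genes carried H3K4me3, 52.7% H3K27ac, 46% EZH2, 39.4% p300 and 33.6% N-MYC, and 13.9% carried SUZ12 and 27.9% H3K27me3. The comparison set was all 17491 protein-coding genes with a listed start, of which 8927 carried H3K4me3.

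All 41 replication genes carried H3K4me3 and H3K27ac, against 51% and 51.2% of all listed starts. H3K27ac was called at 93.5% of the starts with H3K4me3, which hold H3K4me3 in 100% by definition. p300 had a peak at 39 of the genes (95.1%), against 40.1% of all starts and 78.1% of the starts with H3K4me3. EZH2 had a peak at 35 (85.4%), against 45.4% and 74.6%. N-MYC had a peak at 24 (58.5%), above the 33.9% of all starts but below the 66% of starts with H3K4me3. No gene of the 41 carried SUZ12 or H3K27me3, which were called at 12.3% and 23.9% of all starts and at 9.12% and 14% of starts with H3K4me3. EZH2 at these genes was thus called without either of the other Polycomb features. This was common at other starts too. Of the 6660 starts with H3K4me3 and EZH2, 4449 also had N-MYC, p300 and H3K27ac and neither SUZ12 nor H3K27me3. A further 900 had p300 and H3K27ac without N-MYC, and neither SUZ12 nor H3K27me3.

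**Figure D1:**
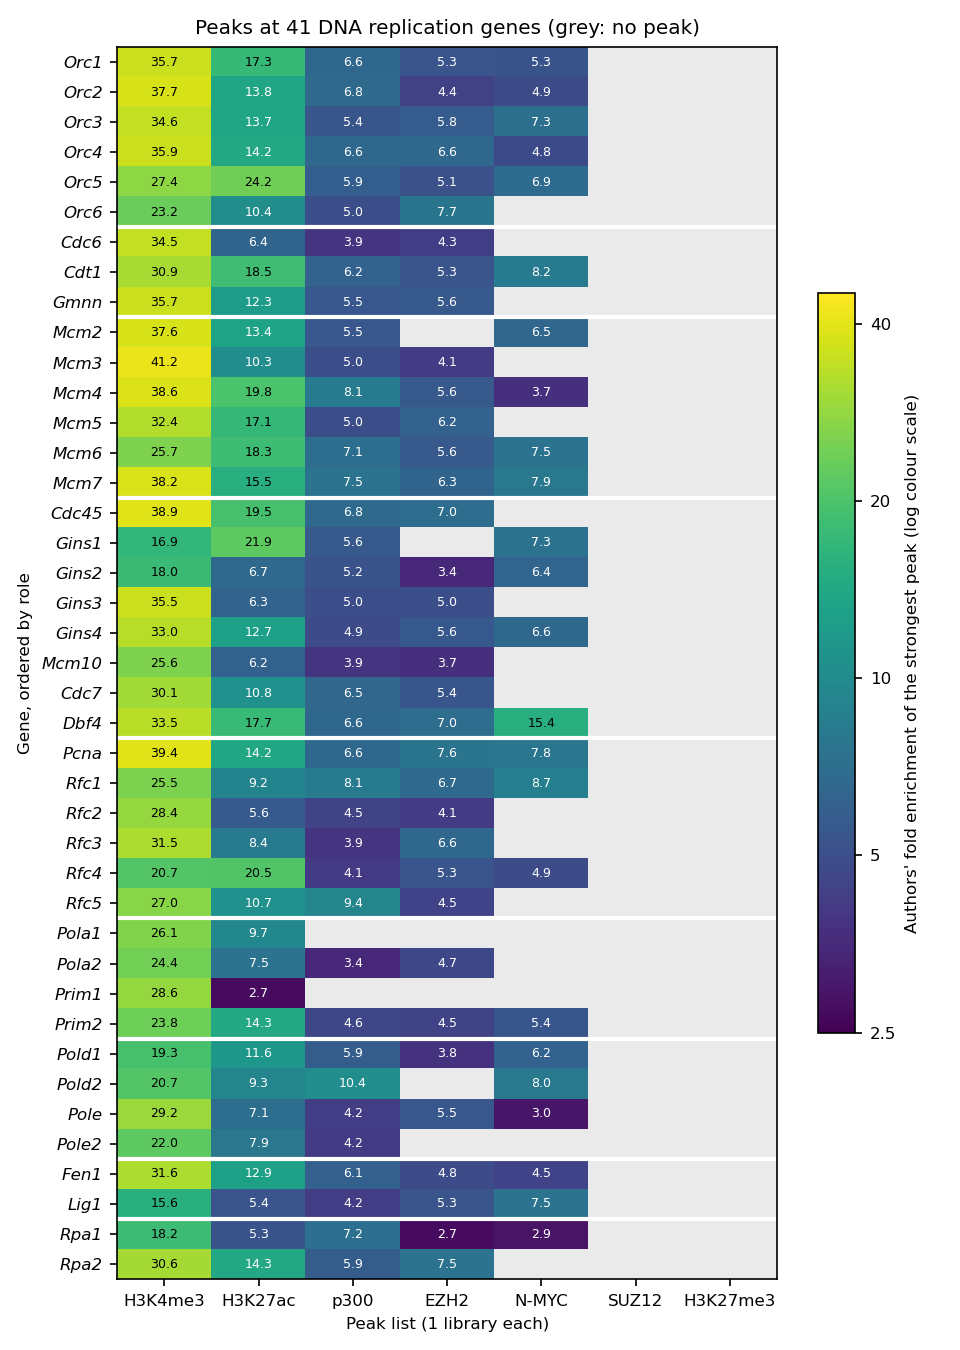
Authors' fold enrichment of the strongest peak (colour on a log scale, value printed) for 41 replication genes in rows and 7 peak lists in columns, each list from 1 library; white lines separate roles and grey cells have no peak. The SUZ12 and H3K27me3 columns are empty, and N-MYC is missing at 17 genes.

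Because peaks of the factors were called more often at strong H3K4me3 peaks, the starts whose H3K4me3 fold enrichment lay between the lowest and highest of the 41 genes, 15.6 and 41.2, were also counted. Of these 6571 starts, 81.7% carried EZH2, 89.2% carried p300 and 73.9% carried N-MYC. H3K27ac was called at 99.6% and H3K4me3 at 100% of them. Against that set the share for EZH2 was close (85.4%), the share for p300 was somewhat higher (95.1%) and the share for N-MYC was lower (58.5%). SUZ12 was called at 3.42% and H3K27me3 at 6.25% of these starts. The N-MYC list was the shortest, and with every list limited to its 9798 most significant peaks N-MYC stayed at 24 genes (58.5%, against 72.5% of starts with H3K4me3), while EZH2 was at 26 (63.4%, against 58.5%).

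**Figure D2:**
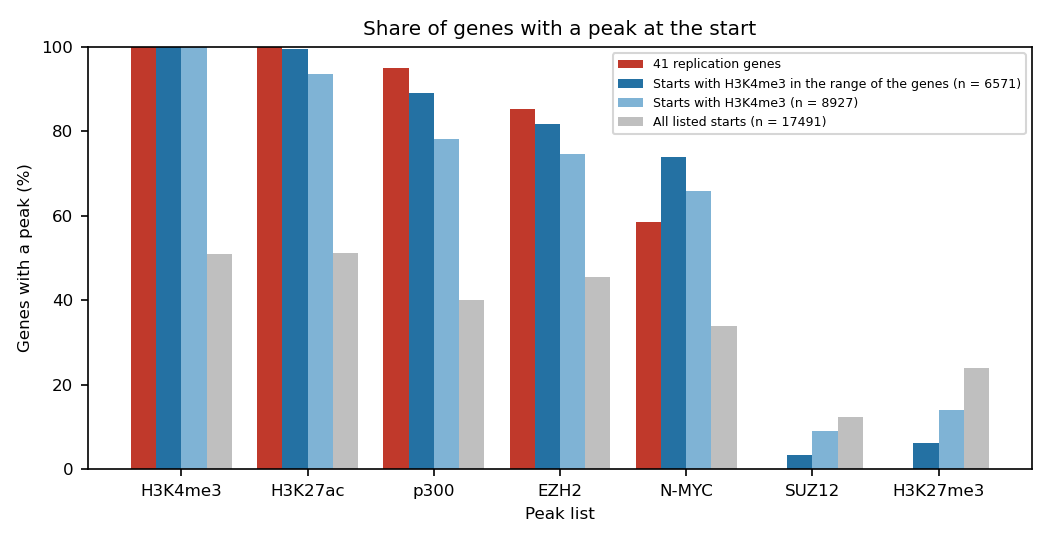
Share of genes with a peak (vertical axis, percent) in each of 7 lists for the 41 replication genes and for 3 comparison sets of listed starts. The replication genes lie below both sets with H3K4me3 for N-MYC (58.5% against 66% and 73.9%). They had 0% for SUZ12 (against 9.12% and 3.42%) and 0% for H3K27me3 (against 14% and 6.25%).

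The genes fell into 5 combinations of EZH2, N-MYC and p300. All of these factors were called together at 21 genes (51.2%), with H3K27ac and H3K4me3 and without SUZ12 or H3K27me3. The same combination was found at 25.4% of all starts, 49.8% of starts with H3K4me3 and 59.1% of those in the same H3K4me3 range. EZH2 and p300 without N-MYC were called at 14 genes (34.1%). This combination was found at 5.15% of all starts, 10.1% of starts with H3K4me3 and 12.6% of those in the range. The count of genes depended on list length. With every list cut to the length of the N-MYC list, Cdc6, Mcm3, Mcm10, Rfc2 and Rfc5 lost EZH2. Rfc3 and Pola2 lost p300 and Gins3 lost H3K27ac, which left Orc6, Gmnn, Mcm5, Cdc45, Cdc7 and Rpa2. The share of other starts with this combination was not computed at equal length. N-MYC and p300 without EZH2 were found at Mcm2, Gins1 and Pold2, against 4.26% of all starts, 8.35% of starts with H3K4me3 and 7.97% of those in the range. Pole2 had p300 alone, and Pola1 and Prim1 had none of these factors. Starts with the marks and none of these factors made up 3.3% of all starts, 6.47% of those with H3K4me3 and 3.47% of those in the range.

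Median fold enrichments, where a peak was called, were lower than those of other genes for EZH2 and H3K27ac. They were higher for N-MYC, p300 and H3K4me3. For all but EZH2 the 95% order-statistic interval of the replication gene median held the median of starts with H3K4me3. These intervals were 4.91 to 7.53 for N-MYC, 5.02 to 6.57 for p300, 9.33 to 14.2 for H3K27ac and 25.7 to 33.5 for H3K4me3. Their directions are therefore not settled. The EZH2 interval, 4.85 to 5.63, held the median of 5.57 over starts in the H3K4me3 range, though not 5.73. The median for EZH2 was 5.35 over 35 genes, against 5.73 over the starts with H3K4me3 that carried EZH2, and 11 of the 35 lay above that value. For N-MYC the median was 6.56 over 24 genes against 6.03, and 15 of the 24 lay above. The p300 median was 5.61 against 5.40, and the H3K27ac median was 12.3 against 12.9. H3K4me3 was higher, with a median of 30.1 against 26.6, and 26 of the 41 genes lay above 26.6. H3K4me3 peaks were also wider, with a median of 2900 bp against 2504 bp.

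Promoter sequence was read for the 33 genes with a RefSeq entry (GRCm38.p6) from 250 bases before to 50 after the start, on both strands. The E2F-type words TTTCCCGC, TTTGGCGC and TTTCGCGC were searched together, as were the E-box CACGTG and CCAAT, the box bound by NF-Y. An E2F-type word occurred in 13 of the 33 promoters (39.4%), against 2.48% of all listed promoters and 4.04% of those with H3K4me3. CCAAT occurred in 19 (57.6%), against 39% and 39.6%. The E-box occurred in 4 (12.1%), at Lig1, Pola2, Rfc1 and Rpa1, against 7.9% and 10.8%. E2F-type words were found in 4 of the 5 MCM2-7 promoters with an entry, and in both of the licensing promoters, Cdc6 and Cdt1.

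**Figure D3:**
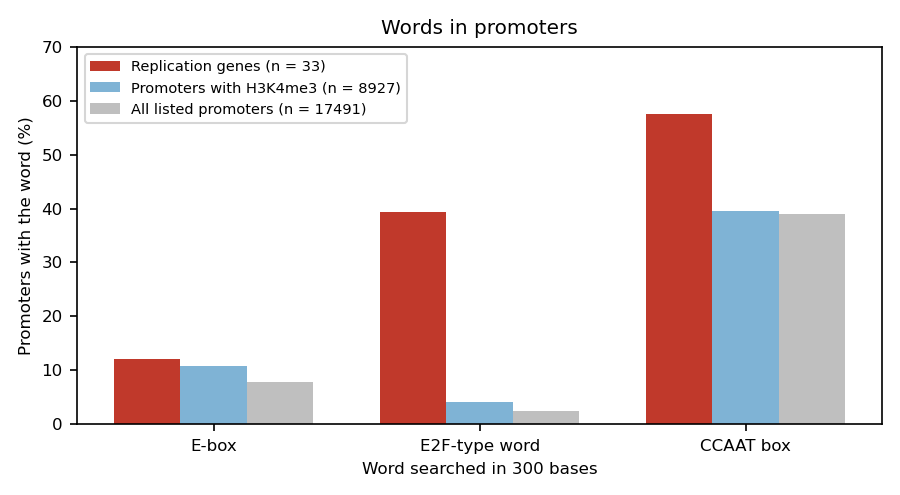
Share of promoters (vertical axis, percent) with an E-box, an E2F-type word or a CCAAT box within 300 bases, for 33 replication genes and 2 comparison sets. The E2F-type bar of the replication genes, 39.4%, stands over 4.04% and 2.48%, and the E-box bars lie between 7.9% and 12.1%.

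The 250 bases before the start are shown for 7 genes. Mcm5 (no N-MYC peak), Mcm6, Mcm7 and Orc1 (N-MYC peaks) show the E2F-type words in genes of the loading machinery. Dbf4 and Rfc1 hold the 2 highest N-MYC values, and Pola1 has an E2F-type word without any EZH2, N-MYC or p300 peak. Each sequence runs 5′ to 3′ towards the start, and capitals mark an E2F-type word, CACGTG or the related CACGCG on either strand.
Mcm5, chr8:75109259-75109508, plus strand: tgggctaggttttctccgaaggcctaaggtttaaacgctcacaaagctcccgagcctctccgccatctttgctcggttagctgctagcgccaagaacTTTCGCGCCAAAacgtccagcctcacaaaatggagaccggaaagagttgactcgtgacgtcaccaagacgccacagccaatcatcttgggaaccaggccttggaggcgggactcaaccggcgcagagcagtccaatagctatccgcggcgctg
Mcm6, chr1:128359706-128359955, minus strand: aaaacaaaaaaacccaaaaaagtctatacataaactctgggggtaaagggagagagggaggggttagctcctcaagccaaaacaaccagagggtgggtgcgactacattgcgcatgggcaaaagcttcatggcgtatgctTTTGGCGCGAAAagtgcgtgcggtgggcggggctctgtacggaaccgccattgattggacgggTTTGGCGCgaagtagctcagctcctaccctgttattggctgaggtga
Mcm7, chr5:138171884-138172133, minus strand: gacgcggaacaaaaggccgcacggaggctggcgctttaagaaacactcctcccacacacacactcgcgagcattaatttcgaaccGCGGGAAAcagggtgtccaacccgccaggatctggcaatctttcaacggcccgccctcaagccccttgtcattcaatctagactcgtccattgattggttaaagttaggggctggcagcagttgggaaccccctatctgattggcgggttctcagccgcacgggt
Orc1, chr4:108579204-108579453, plus strand: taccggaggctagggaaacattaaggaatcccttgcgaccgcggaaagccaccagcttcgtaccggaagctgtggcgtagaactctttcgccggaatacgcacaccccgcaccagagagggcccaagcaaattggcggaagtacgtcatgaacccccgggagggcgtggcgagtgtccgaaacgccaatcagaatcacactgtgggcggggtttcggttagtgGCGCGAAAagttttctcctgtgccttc
Dbf4, chr5:8422717-8422966, minus strand: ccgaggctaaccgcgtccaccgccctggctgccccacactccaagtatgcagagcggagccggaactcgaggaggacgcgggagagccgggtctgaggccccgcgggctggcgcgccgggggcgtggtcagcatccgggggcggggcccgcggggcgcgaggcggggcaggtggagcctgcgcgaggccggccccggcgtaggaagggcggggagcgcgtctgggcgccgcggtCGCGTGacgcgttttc
Rfc1, chr5:65335640-65335889, minus strand: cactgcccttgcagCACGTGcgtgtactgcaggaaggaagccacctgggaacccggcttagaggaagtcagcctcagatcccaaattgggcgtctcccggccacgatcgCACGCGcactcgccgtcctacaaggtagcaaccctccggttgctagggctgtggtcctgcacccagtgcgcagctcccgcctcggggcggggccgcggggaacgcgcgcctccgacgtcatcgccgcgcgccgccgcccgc
Pola1, chrX:93632156-93632405, minus strand: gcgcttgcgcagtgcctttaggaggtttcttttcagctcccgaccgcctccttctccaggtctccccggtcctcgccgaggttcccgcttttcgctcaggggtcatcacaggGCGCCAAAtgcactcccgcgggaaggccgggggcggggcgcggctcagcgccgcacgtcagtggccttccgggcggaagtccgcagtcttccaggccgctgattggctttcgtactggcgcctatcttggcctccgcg

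Mcm5 and Mcm6 hold the same joined site on opposite strands, TTTCGCGCCAAA in Mcm5 and its reverse complement TTTGGCGCGAAA in Mcm6, in which a pair of E2F-type words overlap. The joined site was noticed in these sequences and then counted, and it occurred in 4 of the 17491 listed promoters. It began 153 bases before the start in Mcm5 and 110 bases before it in Mcm6, and N-MYC was called at Mcm6 (7.49) but not at Mcm5.

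N-MYC was not called more often at the replication gene promoters that held an E2F-type word. N-MYC was called at 6 of the 13 promoters with an E2F-type word and at 12 of the 20 without, whereas EZH2 was called at 11 of the 13 and 17 of the 20. Over all promoters with H3K4me3, N-MYC was called at 72.3% of those with an E2F-type word and 65.7% of those without. For EZH2 the shares over these promoters were 80.1% and 74.4%. With the E-box N-MYC was called at 3 of the 4 promoters, the exception being Pola2, and without it at 15 of the 29. Over all promoters with H3K4me3 these shares were 78.5% and 64.5%. At Lig1, counted among the promoters with both, the E-box begins 37 bases after the first start. Its N-MYC summit lies 1427 bp downstream of that start, and the peak is outside the start window. The promoter of Dbf4, with the highest N-MYC value, has no CACGTG in this window and has CACGCG on the opposite strand.

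The origin recognition complex, which marks origins and recruits the loading factors, had EZH2 at each of its 6 genes. N-MYC was called at Orc1, Orc2, Orc3, Orc4 and Orc5, with fold enrichments from 4.79 at Orc4 to 7.29 at Orc3, whereas Orc6 had none within 132648 bp. Orc6 carried the highest EZH2 value of all 41 genes, 7.67, beside the lowest H3K4me3 of its complex, 23.2, with p300 at 5.03 and H3K27ac at 10.4. Orc5 had the highest H3K27ac of the 41, at 24.2. Orc1, an ATPase and the largest subunit, had H3K4me3 at 35.7, H3K27ac at 17.3, p300 at 6.64, EZH2 at 5.33 and N-MYC at 5.31.

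Among the licensing factors only Cdt1, which delivers MCM2-7 to the origin, carried N-MYC. Its value of 8.20 was the third highest of the set, with EZH2 at 5.33, p300 at 6.19, H3K27ac at 18.5 and H3K4me3 at 30.9. Cdc6, the ATPase that works with Cdt1, had H3K4me3 at 34.5 but lower values in the other lists, with H3K27ac at 6.37, EZH2 at 4.25 and p300 at 3.90. Gmnn encodes geminin, the inhibitor of Cdt1, and had EZH2 at 5.63, p300 at 5.50, H3K27ac at 12.3 and H3K4me3 at 35.7. The nearest N-MYC peak lay 29488 bp from Cdc6 and 23927 bp from Gmnn.

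The 6 subunits of the MCM2-7 helicase sit together in a ring, but their promoters did not carry the same factors. Mcm6 and Mcm7 had both EZH2 (5.63 and 6.34) and N-MYC (7.49 and 7.92), with p300 at 7.13 and 7.51. Mcm3 and Mcm5 had EZH2 (4.12 and 6.24) and p300 (5.02 at each) and no N-MYC peak, the nearest being 166225 and 15676 bp away. Mcm2 had the reverse, with N-MYC at 6.50, p300 at 5.51 and no EZH2 peak closer than 3523 bp. Mcm4 carried N-MYC at 3.70, among the 3 lowest values of the set, with EZH2 at 5.60 and p300 at 8.13. H3K27ac was 13.4 at Mcm2, 10.3 at Mcm3 and 17.1 at Mcm5, the genes that lacked a factor. Where all the factors were called it was 19.8 at Mcm4, 18.3 at Mcm6 and 15.5 at Mcm7, so Mcm5 lay above Mcm7. H3K4me3 was 37.6 at Mcm2, 32.4 at Mcm5 and 38.6 at Mcm4. It was between 25.7 at Mcm6 and 41.2 at Mcm3, the highest of the 41 genes.

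Factors that activate the loaded helicase were split as well. Dbf4, the regulatory subunit of the Cdc7 kinase, had by far the highest N-MYC value of the set, 15.4, which exceeded 99.0% of all starts that carried N-MYC. Its EZH2 was 7.02, p300 6.57, H3K27ac 17.7 and H3K4me3 33.5. Cdc7, the catalytic subunit of the same kinase, had no N-MYC within 212967 bp but carried EZH2 at 5.43, p300 at 6.51, H3K27ac at 10.8 and H3K4me3 at 30.1. Of the 4 GINS genes, Gins1 (7.33), Gins2 (6.38) and Gins4 (6.61) had N-MYC and Gins3 did not. Gins1 lacked EZH2, and at Gins2 the EZH2 value of 3.43 was the second lowest of the set, while Gins3 had 5.01 and Gins4 5.57. Gins1 had p300 at 5.61, the second highest H3K27ac of the set at 21.9 and the second lowest H3K4me3 at 16.9. Gins2 had p300 at 5.21, H3K27ac at 6.72 and H3K4me3 at 18.0, and Gins3 had 5.01, 6.27 and 35.5. GINS genes thus differed in the marks as well as in the factors. Cdc45, the partner of GINS, had EZH2 at 7.02, p300 at 6.76, H3K27ac at 19.5 and H3K4me3 at 38.9 without N-MYC. That EZH2 peak had its summit at -568 bp from the start of Cdc45, and the EZH2 peak nearest this start had 3.88. Mcm10, which helps the helicase to start, had EZH2 at 3.69, p300 at 3.90, H3K27ac at 6.16 and H3K4me3 at 25.6 without N-MYC.

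Pcna, the sliding clamp, combined the second highest EZH2 (7.61) with N-MYC at 7.78, p300 at 6.64, H3K27ac at 14.2 and an H3K4me3 peak of 39.4 and 4603 bp, the widest of the set. Among the clamp loader genes Rfc1 and Rfc4 had N-MYC (8.69 and 4.91), and Rfc2, Rfc3 and Rfc5 had none. All of them had EZH2, from 4.12 at Rfc2 to 6.73 at Rfc1. p300 had its highest clamp loader value, 9.36, at Rfc5, a gene without N-MYC, and its lowest, 3.90, at Rfc3. H3K27ac was 20.5 at Rfc4 and 9.24 at Rfc1, and H3K4me3 was 25.5 and p300 8.14 at Rfc1. Without N-MYC, Rfc2 had EZH2 at 4.12, p300 at 4.53, H3K27ac at 5.64 and H3K4me3 at 28.4. The same values were 6.60, 3.90, 8.37 and 31.5 at Rfc3, and 4.48, 9.36, 10.7 and 27 at Rfc5, so clamp loader genes without N-MYC spanned most of the p300 range.

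Polymerase alpha-primase, which lays the primers, had EZH2 and p300 at 2 of its 4 genes. Of these genes, Prim2 alone had N-MYC (5.42), and Pola2 had EZH2 at 4.70, p300 at 3.43, H3K27ac at 7.53 and H3K4me3 at 24.4. Pola1, the catalytic subunit, had H3K4me3 at 26.1 and H3K27ac at 9.66 and no EZH2, N-MYC or p300 peak within 199873 bp. Prim1, the primase, had H3K4me3 at 28.6 and the lowest H3K27ac of the 41 genes, 2.71, with the nearest EZH2, N-MYC and p300 peaks 20082, 20155 and 19477 bp away. For the leading and lagging strand polymerases, Pold1 had N-MYC at 6.20 with EZH2 at 3.80, and Pole had N-MYC at 2.99 with EZH2 at 5.48, p300 at 4.22, H3K27ac at 7.11 and H3K4me3 at 29.2. Pold2 had the highest p300 of the set, 10.4, and N-MYC at 7.96, without EZH2, beside H3K27ac at 9.33 and H3K4me3 at 20.7. Pole2 had p300 at 4.15, H3K27ac at 7.86 and H3K4me3 at 22.0.

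Fen1 and Lig1 finish Okazaki fragments by trimming the flap and sealing the nick. Fen1 had EZH2 at 4.85 and N-MYC at 4.47, and Lig1 had EZH2 at 5.33 and N-MYC at 7.53 with the lowest H3K4me3 of the set, 15.6. The subunits of RPA, which coats single-stranded DNA, differed: Rpa1 had the lowest EZH2 (2.74) and N-MYC (2.92) values of the 41 genes, with p300 at 7.22, H3K27ac at 5.30 and H3K4me3 at 18.2. Rpa2 had EZH2 at 7.50, p300 at 5.89, H3K27ac at 14.3, H3K4me3 at 30.6 and no N-MYC peak. The EZH2 and N-MYC peaks of Rpa1 also had low significance, with −log10 q of 2.55 and 3.09, near the end of the lists.

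**Figure D4:**
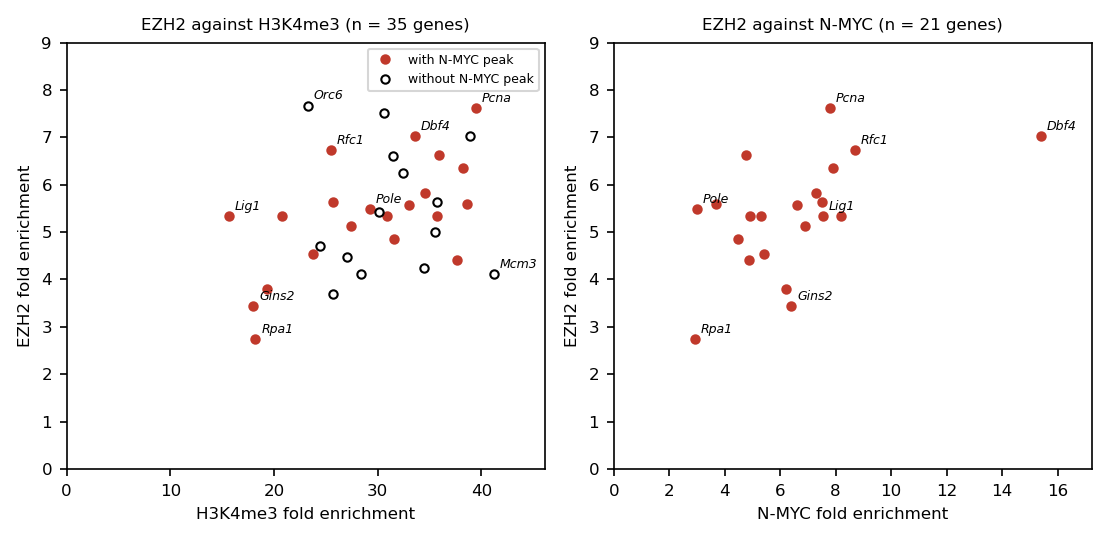
EZH2 fold enrichment (vertical axis) against H3K4me3 (left, 35 genes with both) and against N-MYC (right, 21 genes with both); each point is 1 gene, and open circles have no N-MYC peak. Genes without N-MYC span EZH2 values from 3.69 to 7.67, and Dbf4 stands at the right with N-MYC at 15.4.

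The summits of the lists took different places around the start. Over the 33 genes with a listed start, N-MYC summits had a median position of -3.5 bp relative to the start (18 genes), and p300 summits of -15 bp (31 genes). EZH2 summits lay downstream of the start in 23 of 28 genes, at a median of 270 bp, close to H3K4me3 at 266 bp and H3K27ac at 218 bp. Over all listed starts the medians were 5 bp for N-MYC, -11 bp for p300, 273 bp for EZH2, 288 bp for H3K4me3 and 247 bp for H3K27ac.

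**Figure D5:**
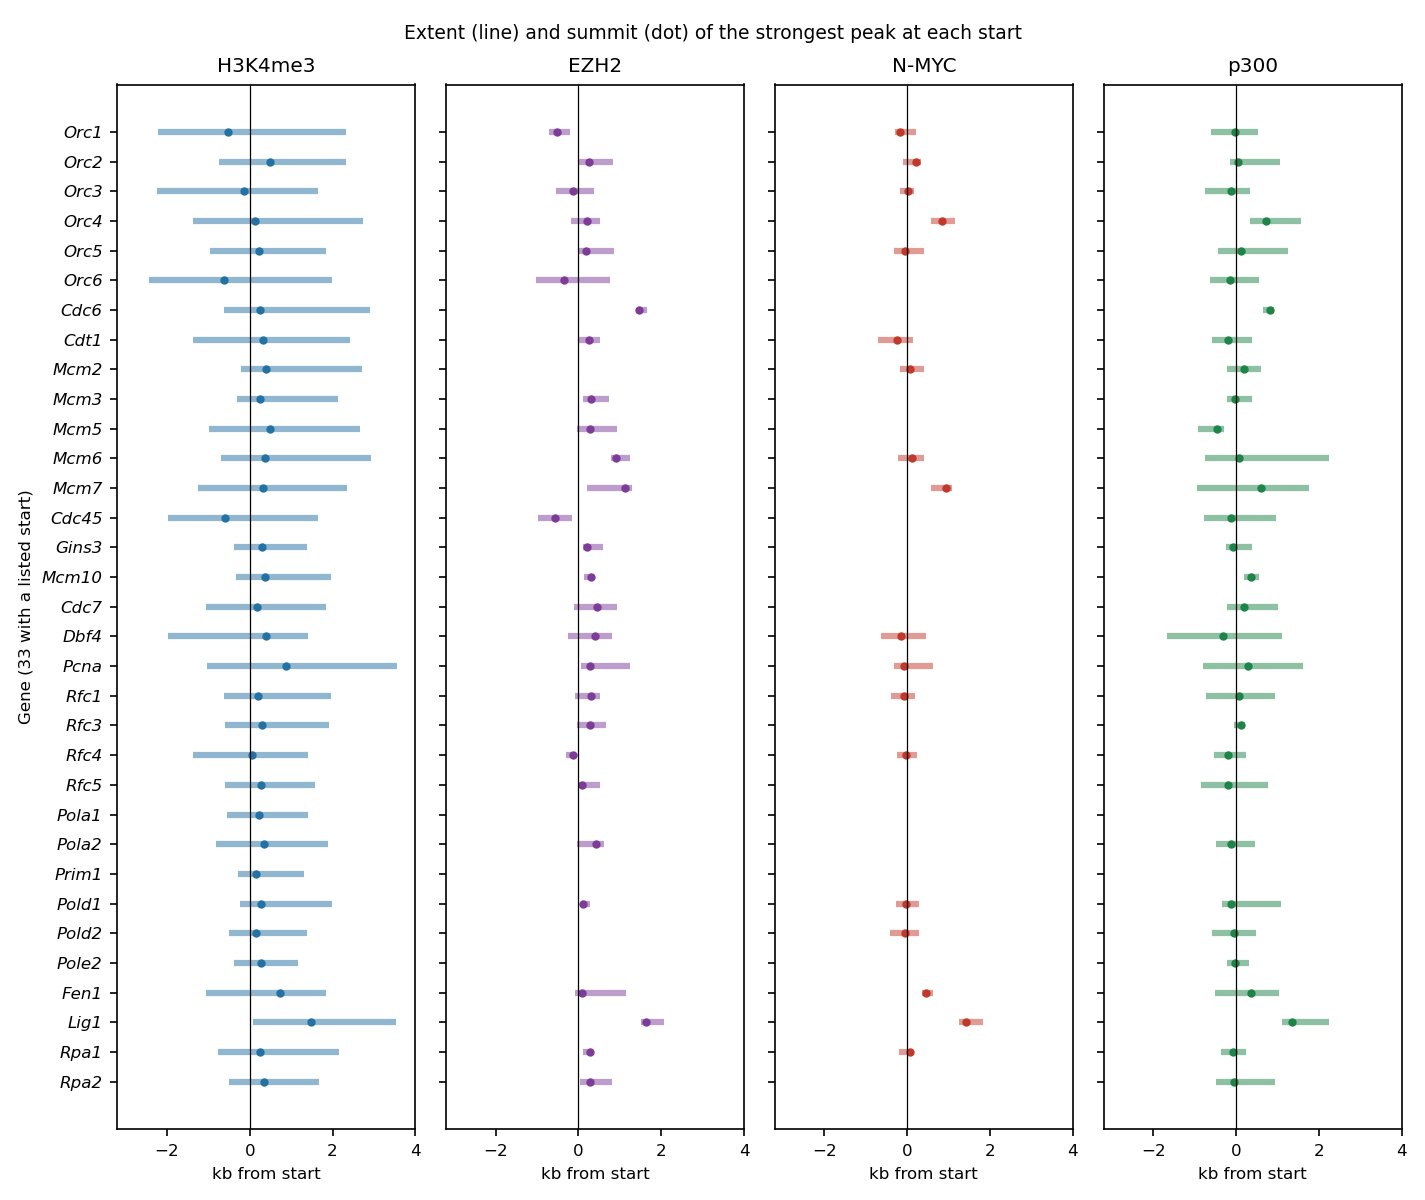
Extent (line) and summit (dot) of the strongest peak in 4 lists at the 33 genes with a listed start, in kb from the start with transcription to the right; rows without a line have no peak. EZH2 dots lie mostly right of the start and N-MYC dots on it.

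Several genes departed from this pattern. N-MYC summits lay 462 to 1427 bp downstream of the first listed start at Orc4, Mcm7, Fen1 and Lig1, and all of these have a further RefSeq start inside the gene. At Orc4 the summit was 18 bp from the second listed start and at Fen1 -10 bp, while at Lig1 it was -224 bp and at Mcm7 317 bp from it. At Lig1 the H3K4me3 summit was 1477 bp and the EZH2 summit 1637 bp downstream of the first start, and EZH2 was -14 bp from the second listed start. Lig1 had EZH2, N-MYC and p300 only over its H3K4me3 peak and not in the window itself. This H3K4me3 peak also covers a listed start of Zswim9, more than 1 kb from the first start of Lig1. The peaks may therefore belong to either gene.

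H3K4me3 summits lay upstream of the start at Orc1 (-514 bp), Orc3 (-149 bp), Orc6 (-622 bp) and Cdc45 (-588 bp). Each of these genes has a neighbour there: Prpf38a 118 bp, Rars2 15 bp, Vps35 115 bp and Ufd1 322 bp away, so the peak may belong to either gene. The same holds for their strongest EZH2 peaks, with summits at -529, -137, -356 and -568 bp in the same order. In all, 11 of the 41 genes had another protein-coding start or gene end within 1 kb, the others being Orc4 (Mbd5), Mcm4 (Prkdc), Mcm7 (Ap4m1), Dbf4 (Slc25a40), Pole (Pxmp2), Fen1 (Tmem258) and Rpa1 (Smyd4). The N-MYC peak of Dbf4, with its summit 144 bp upstream of the start, lay near the start of Slc25a40, which is 122 bp from that of Dbf4.

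Other genes of the pathway were read from a list of 38, covering the remaining polymerase and RPA subunits, origin firing, fork protection, alternative clamp loaders, primer removal and chromatin assembly. EZH2 was called at 31 (81.6%), N-MYC at 24 (63.2%), p300 at 36 and H3K27ac and H3K4me3 at 37, and none had SUZ12 or H3K27me3. Pole4, a small subunit of polymerase epsilon, had N-MYC at 20.7 without EZH2, and Recql4, a helicase needed for firing, had N-MYC at 4.03 without EZH2. Pold4, Clspn, Chtf18 and Dscc1 had p300 (4.57, 4.77, 3.97 and 3.53) without EZH2 or N-MYC, and Rnaseh2c had EZH2 at 4.38 and N-MYC at 5.92 without p300. Timeless, a fork protection factor, had no peak at its listed start, which lies inside the gene, and at its gene ends it had H3K4me3 at 28.1, EZH2 at 5.18 and N-MYC at 4.96.

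As a check of the cells, H3K4me3 was called at the starts of 12 of 13 T-cell genes, with Cd8a missing. It was called at none of 5 myeloid and none of 5 endothelial and stromal genes, and at 1 of 5 B-cell genes (Cd79a, 4.74) and 1 of 5 thymic epithelial genes (Epcam, 19.3). H3K27ac was called at 12 of the 13 T-cell genes, but also at 2 of 5 B-cell, 2 of 5 myeloid, 2 of 5 endothelial and stromal and 3 of 5 thymic epithelial genes. The erythroid genes Hbb-bs and Klf1 carried H3K4me3, each at 19.8, and H3K27ac, at 8.81 and 13.6. Klf1 also had EZH2 at 5.93, N-MYC at 4.67 and p300 at 3.66. The part of other cells in the peaks at replication genes was not tested. Read depth is unknown, since the files hold peaks only, and the lists differed in length from 9798 peaks for N-MYC to 123056 for H3K27me3. A missing peak means that none passed the authors' threshold, not that the protein was absent.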

How the data were processed

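Deposited peak lists of 7 immunoprecipitations, 1 library each, were used; the 2 inputs were not used. The submitters' processing notes name FastQC, Bowtie2, SAMtools, MACS2 and deepTools and the builds mm10 and GRCm38, without settings or roles. Control, pooling and filters are not given in the sources used here. The files have no header: the fold enrichment of a peak is the authors' deposited linear ratio, the deposited −log10 p-value and −log10 q-value were read as such (lowest −log10 q from 2.00 to 2.08), and the deposited whole-number score was not used. Fold values come in steps, and 76.5 to 98.1% of peaks share theirs with another peak, so small differences carry no order.

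Starts, strands and promoters came from RefSeq GRCm38.p6, with the first listed start of each gene. Regions were read with Python 3.11.15, numpy 2.4.6 and pandas 2.3.3. On simulated peaks, 200 of 200 planted on an H3K4me3 peak outside the window and 0 of 200 planted off it were called among 17491 genes. The members, lists and tests were chosen with earlier results of these data known. The reading at both gene ends, the range of H3K4me3, the joined site, the split by N-MYC and the further listed starts were chosen after seeing the data. All 41 genes could be named, with every value for those lacking a call and for the 3 highest and 3 lowest in EZH2 and N-MYC. At most 8 other replication genes lacking a call are named, and neighbours are starts or gene ends within 1 kb. Alternatives changed the window, threshold, list length, overlap, peak or start. No correlation or share has a p-value, and peaks of 1 library give no biological error. A further marker gene is not reported here.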

Additional observations from a re-analysis of the deposited data

How the results depend on the processing

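For 17 results, 111 alternative values were computed, of which 109 stayed within 1.5 times the reported count or within the 95% order-statistic interval of the reported median. With every list limited to its 9798 most significant peaks, H3K27ac was called at 27 genes instead of 41 (65.9%, below the 75.9% of starts with H3K4me3), and p300 at 36 (87.8%, against 74.6%). With both ends of every gene read in place of the start, H3K27me3 was called at 1 gene, Cdc45. The nearest H3K27me3 peak lay 32134 bp from the Cdc45 start, so this call was at the other end of the gene. H3K4me3 was called at 38 with both ends read, since the ends of Orc1, Orc4 and Rfc1 lie away from their listed starts. At a q-value of at most 1e-05 EZH2 remained at 29 genes, losing Cdc6, Gins2, Mcm10, Rfc2, Pold1 and Rpa1. The share with EZH2 was then 70.7%, against 67.3% of starts with H3K4me3. N-MYC remained at 21 genes, losing Mcm4, Pole and Rpa1. The share with N-MYC, 51.2%, was then below the 62.3% of starts with H3K4me3. A promoter window of 500 bp on each side was not run, as no genome sequence was used. Counting CACGCG with CACGTG raised the promoters with a match from 4 to 5 (15.2%), below the 18.6% of all listed promoters and 28% of those with H3K4me3. No paired analysis was possible because each antibody had 1 library.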

Other observations

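Among the replication genes, those with and those without N-MYC had the same median of H3K4me3. The 24 genes with N-MYC had a median H3K4me3 fold enrichment of 30.1 and the 17 without it had 30.1 as well. Over all starts with H3K4me3 the medians were 29.6 with N-MYC and 18.8 without. The ranges were unlike, since H3K4me3 without N-MYC went down to 2.67 over all starts and to 22.0 over the replication genes. These medians were not computed for starts in the H3K4me3 range of the replication genes. Mcm3, Cdc45, Gmnn, Gins3 and Cdc6 were among the genes without N-MYC and had H3K4me3 between 34.5 and 41.2. H3K27ac did differ, with a median of 14.0 at the 24 genes and 9.66 at the 17, near the 14.8 and 9.36 of all starts with H3K4me3. These are descriptions of 1 library per list, with no test.

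EZH2 and N-MYC fold enrichments had a Spearman rank correlation of 0.508 across the 21 genes with both, against 0.185 across 4948 starts with H3K4me3. EZH2 and H3K4me3 had 0.359 across 35 genes, against 0.466 across 6660 starts. In all, 10 pairs of lists were read. N-MYC had lower values in the replication genes with p300 (0.207 against 0.395), H3K27ac (0.139 against 0.358) and H3K4me3 (-0.0565 against 0.186). H3K4me3 with p300 and with H3K27ac was also lower. EZH2 with p300 and with H3K27ac, and p300 with H3K27ac, were higher in the replication genes. Genes are not independent replicates, and values of a list share 1 library and its depth. The nearest H3K27me3 peak to any of the 41 genes lay 2173 bp from Mcm3, with a median distance of 43282 bp, and the nearest SUZ12 peak lay 4652 bp from Pole.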
